A study of Homo sapiens with 2 samples.

Results

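The genes examined were 10 transcriptional targets of the ERK kinases that act back on the pathway or serve as readouts of its activity, namely DUSP4, DUSP5, DUSP6, SPRY1, SPRY2, SPRY4, SPRED1, SPRED2, ETV4 and ETV5. They were chosen by name for this role, out of 19938 protein-coding genes with a transcript in the table, and earlier results of these data were known when the list was drawn up. The RNA came from U87 cells, an established human glioblastoma line labelled wild type and grown in RPMI with fetal bovine serum. The DMSO group received the solvent for 72 h, and the CCA-1.1 group received CCA-1.1, a curcumin analog, for 72 h. The dose of CCA-1.1 in this experiment is not given in the sources used here. There was 1 library per condition, so no difference has a replicate check, no p-value is given, and treatment cannot be told apart from any other difference between the 2 cultures.

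ERK is the last kinase of the cascade that runs from receptor tyrosine kinases through RAS, RAF and MEK. Active ERK induces its own inhibitors: DUSP phosphatases remove the activating phosphates from ERK, and Sprouty and SPRED proteins, which are membrane-bound, restrain the cascade at the level of RAS and RAF. It also induces the PEA3 group of ETS transcription factors, among them ETV4 and ETV5, which carry the response to growth factors into gene expression. Transcripts of these genes follow ERK activity closely and are widely used as its readout, and the cascade is commonly activated by receptor tyrosine kinases in glioblastoma.

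Promoter sequence from RefSeq (GRCh38.p14) was used for 6 of the 10 genes. It came as 10 windows that run from 250 bases before a transcription start to 50 bases after it. No window of DUSP4, DUSP5, ETV4 or ETV5 was among them. The 250 bases before the start are shown for DUSP6, the readout with the smallest difference between the libraries, at chr12:89352502-89352751, and for SPRY2, the gene with the largest rise in TPM, at chr13:80341127-80341376. Both are on the minus strand and read 5′ to 3′, and capitals mark GGAA, the core bound by ETS factors, or its complement TTCC.
DUSP6: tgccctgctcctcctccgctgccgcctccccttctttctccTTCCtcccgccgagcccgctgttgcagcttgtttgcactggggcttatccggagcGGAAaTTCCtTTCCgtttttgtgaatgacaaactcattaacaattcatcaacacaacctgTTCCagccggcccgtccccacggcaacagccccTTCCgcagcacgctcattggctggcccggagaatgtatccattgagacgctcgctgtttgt
SPRY2: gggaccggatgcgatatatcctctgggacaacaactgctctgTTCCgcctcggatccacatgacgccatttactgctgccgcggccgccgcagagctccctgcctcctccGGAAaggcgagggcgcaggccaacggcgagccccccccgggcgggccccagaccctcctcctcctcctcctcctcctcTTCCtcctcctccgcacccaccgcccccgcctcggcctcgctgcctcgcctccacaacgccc
The core occurs 6 times before DUSP6 and 3 times before SPRY2. It was found in all 10 windows, as it was in 95.5% of the 35116 RefSeq windows of this length, so its presence sets these genes apart from nothing. Of the longer motifs searched on both strands, the AP-1 site TGANTCA was in 1 of the 10 windows, the one that starts inside SPRED2, against 7.71% of all windows. The capicua sites TGAATGAA and TGAATGGA and the cAMP response element TGACGTCA were in 0 of the 10 (the end of TGAATGGA can overlap a GGAA), against 1.65%, 1.03% and 1.85% of all windows.

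The unit is TPM (transcripts in each 1e+06), which scales reads by transcript length and by the library total, so levels can be compared between genes. It keeps no read depth, and no interval for counting error follows from it. Values of the genes are sums over all their transcripts, and of a pair of values the DMSO library always comes first. Differences are log2((CCA-1.1 TPM + 1) / (DMSO TPM + 1)), which understates the change of genes at low TPM. The cells were high in mesenchymal markers in both libraries, with VIM at 3217 TPM in DMSO against 3106 TPM under CCA-1.1. The neural stem cell markers NES (7.53 and 7.62 TPM) and SOX2 (1.87 and 1.45 TPM) were low, and the glial markers GFAP (0.41 and 0.57 TPM) and S100B (listed at 0 in both) were near the floor. Summed over the 8 glioblastoma markers, the level was 20021 TPM in DMSO against 17073 TPM under CCA-1.1, and most of it was FN1 (fibronectin), at 11241 and 9088 TPM. FN1 and CD44, a hyaluronan receptor at 607.4 and 472.6 TPM, were both lower by over 1.2-fold, with differences of -0.31 and -0.36. The summed markers of leukocytes, endothelium, epithelium and oligodendrocytes lay between 0.22 and 3.81 TPM in either library, and those of neurons, mostly SNAP25, were at 23.9 TPM in DMSO against 19.3 TPM under CCA-1.1. The part of these shifts in the results below was not tested. A difference in bulk RNA also does not tell fewer expressing cells from less RNA per cell.

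The 10 genes were nearly level between the libraries. Together they summed to 240.4 TPM in DMSO against 250.5 TPM under CCA-1.1, a ratio of 1.04. By any amount, 7 genes were higher and 3 were lower under CCA-1.1, with differences that ran from -0.19 for ETV5 to 0.19 for SPRY2. None of the 10 was higher or lower by more than 1.2-fold, that is 0.26 on the log2(TPM + 1) scale, and hence none by more than 2-fold.

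Of the 12041 protein-coding genes that averaged 1 TPM or more, 10.7% were higher by over 1.2-fold and 7.04% were lower by over 1.2-fold. Only 0.149% were higher and 0.191% were lower by over 2-fold, and 53.8% were higher by any amount. Of the 10 genes, 9 passed this minimum, and SPRY1 did not. Their median difference over all 10 was 0.06, beside 0.02 over the 12041 genes, whose 5th and 95th percentiles were -0.31 and 0.36. Thus all 10 feedback genes lay inside the range that held most genes of the table, and their median was near that of all genes.

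**Figure D1:**
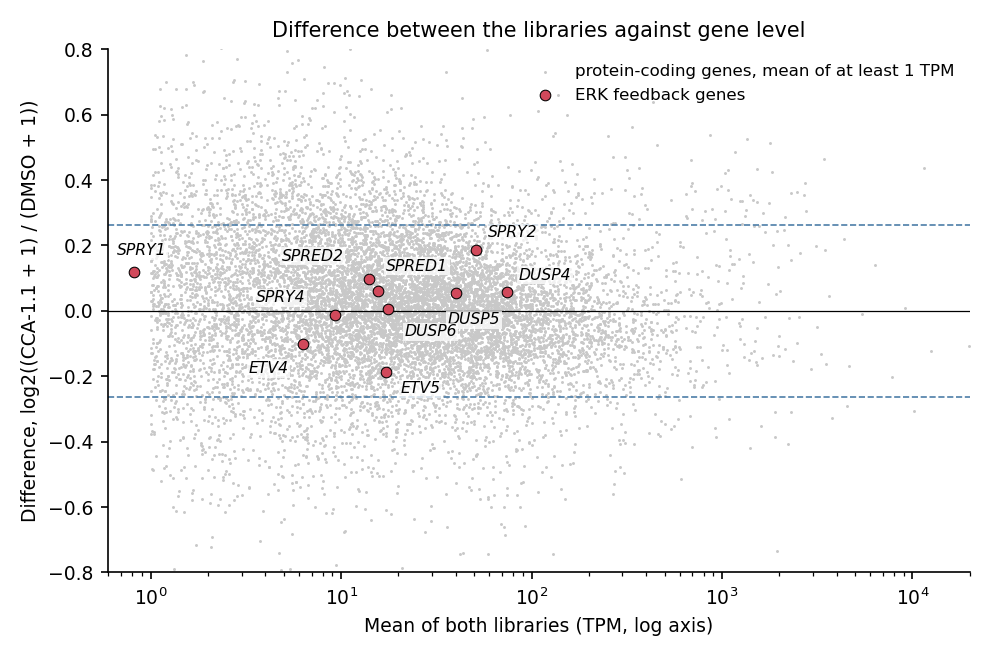
Difference between the libraries (log2 scale with 1 TPM added) against the mean of both libraries (TPM, log axis), for 12041 protein-coding genes in grey and the 10 ERK feedback genes in red; 79 grey genes fall outside the axes. Dashed lines mark 1.2-fold, and all 10 red points lie between them, with SPRY2 the highest at 0.19 and ETV5 the lowest at -0.19.

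The order of levels was almost the same in both libraries. In DMSO it ran from DUSP4 through SPRY2, DUSP5, ETV5, DUSP6, SPRED1, SPRED2, SPRY4 and ETV4 to SPRY1. In CCA-1.1 the only change was that DUSP6 stood above ETV5, at 17.6 TPM against 16.0 TPM. With 1 library each, there is no spread to tell whether neighbours such as ETV5 (18.4 TPM) and DUSP6 (17.5 TPM) differ within the DMSO library. DUSP4 was above 82.3% of the 12041 genes in DMSO. SPRY1 was above 0.133% of them, a low place that follows from its mean below the 1 TPM minimum set for these genes.

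**Figure D2:**
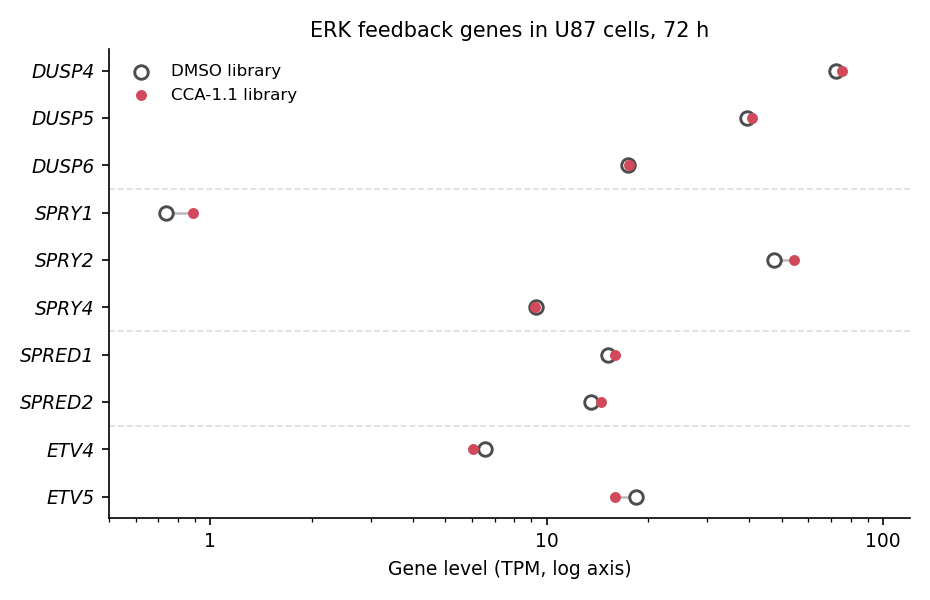
Level of each ERK feedback gene (TPM, log axis) in the DMSO library (open circles) and the CCA-1.1 library (red points), grouped by dashed lines into phosphatases, Sprouty, SPRED and ETV genes. The pairs lie close together over a range of levels from 0.74 TPM for SPRY1 to 75.4 TPM for DUSP4, and both ETV genes have the red point on the left.

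The ERK phosphatases were the most abundant group, with 129.2 TPM in DMSO against 133.7 TPM under CCA-1.1. DUSP4 (Entrez identifier 1846, chromosome 8 from 29333064 to 29350684 in GRCh38.p14, the build of all positions given), an inducible phosphatase of the nucleus, was at 72.4 TPM in DMSO against 75.4 TPM under CCA-1.1, a difference of 0.06. DUSP5 (1847, chromosome 10 from 110497907 to 110511533), a nuclear phosphatase specific for ERK, was at 39.3 TPM and 40.8 TPM, a difference of 0.05. DUSP6 (1848, chromosome 12 from 89347235 to 89352501) acts on ERK in the cytoplasm and is often taken as the standard readout of the pathway. Its level was 17.5 TPM in DMSO against 17.6 TPM under CCA-1.1, a difference of 0.005, the smallest of the 10. All 3 phosphatases were thus higher by at most 1.04-fold under CCA-1.1, and DUSP4 made up 56.1% of their sum in DMSO and 56.4% in CCA-1.1.

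Among the Sprouty genes, which encode inhibitors of receptor tyrosine kinase signalling, SPRY2 carried most of the RNA. SPRY2 (10253, chromosome 13 from 80335976 to 80341126) was at 47.5 TPM in DMSO against 54.2 TPM under CCA-1.1, a ratio of 1.14 and a difference of 0.19. This was above the difference of 81.6% of the 12041 genes. SPRY4 (81848, chromosome 5 from 142310430 to 142325021) was at 9.29 TPM and 9.20 TPM, a difference of -0.01. SPRY1 (10252, chromosome 4 from 123396795 to 123403760) was at 0.74 TPM and 0.89 TPM, a difference of 0.12. SPRY2 was therefore the only 1 of the 3 that moved by more than 1 TPM, and it held 80.1% of the RNA of all 4 Sprouty genes in DMSO and 81.9% in CCA-1.1. For SPRY1 the size of the difference rests on the pseudocount, and without one it was 0.27, just past 1.2-fold.

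The SPRED proteins bring the RAS inactivator neurofibromin to the membrane. SPRED1 (161742, chromosome 15 from 38252836 to 38357249) was at 15.2 TPM in DMSO against 15.9 TPM under CCA-1.1, a difference of 0.06. SPRED2 (200734, chromosome 2 from 65307175 to 65432599) was at 13.5 TPM and 14.5 TPM, a difference of 0.10. Both were slightly higher in the CCA-1.1 library, but for SPRED2 the direction depended on which transcripts were counted. Over curated transcripts alone (those with NM identifiers), SPRED2 was at 11.9 TPM in DMSO against 10.9 TPM under CCA-1.1, a difference of -0.11. NF1, which encodes neurofibromin and is named here after its values were seen, was at 34.8 TPM and 38.8 TPM, a difference of 0.15.

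Both ETS factors among the 10 genes had lower values in the CCA-1.1 library. ETV5 (2119, chromosome 3 from 186046314 to 186109089) was at 18.4 TPM in DMSO against 16.0 TPM under CCA-1.1, a ratio of 0.871 and a difference of -0.19, which was above that of 12.7% of the 12041 genes. ETV4 (2118, chromosome 17 from 43527846 to 43546340) was at 6.54 TPM and 6.03 TPM, a difference of -0.10. ETV1, the remaining factor of the PEA3 group and not among the 10 genes, was at 13.5 TPM and 11.4 TPM, a difference of -0.23. The 3 PEA3 genes were thus each lower in CCA-1.1, and their sum was 38.4 TPM in DMSO against 33.4 TPM under CCA-1.1, while the sum of the 8 inhibitors was 215.5 TPM and 228.5 TPM. The make-up of the PEA3 group barely differed, with ETV5 at 47.8% of it in DMSO and 47.9% in CCA-1.1 and ETV1 at 35.1% and 34.1%. The difference between the inhibitors and the ETS factors was not tested, since there is no replicate to test it with.

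Kallisto divides reads that match several transcripts among them by estimation, so single transcripts are less certain than the sum of a gene. The table lists 46 transcripts of the 10 genes, of which 12 were at 0 in both libraries, 26 were above 0 in both and 8 were above 0 in 1 library only. On the log2(TPM + 1) scale, 11 of the 46 were higher and 5 were lower by over 1.2-fold, and 0 differed by over 2-fold. The same shares over all transcripts of the table were not computed, so these counts have nothing to be read against. Only 15 of the 46 reached 1 TPM in either library, and the added 1 TPM shrinks changes below that level. Without it, several transcripts would be past 2-fold. Among the higher ones were SPRY2 NM_001318538.1, at 0.52 TPM and 1.23 TPM, and SPRED2 XM_017003576.2, at 0.86 TPM and 1.86 TPM. DUSP4 NM_057158.4 was lower, at 0.42 TPM and 0.19 TPM. In all 10 genes the transcript with the highest value was the same in both libraries. DUSP5 and ETV5 have 1 listed transcript each, and in DUSP4 and DUSP6 the main transcript held at least 98.9% of the TPM, so little of the value of these 4 genes depends on how reads were divided among their own transcripts. Reads could also be divided with overlapping genes, of which the annotation holds 5, over 4 of the 10 genes. Over DUSP6 lies POC1B-DUSP6, a gene that joins it to its neighbour, and over ETV5 lies ETV5-AS1, both without a transcript of their own in the table as matched here. LOC124909470, also over ETV5, and SPRY4-IT1, over SPRY4, were at or below 0.26 TPM in both libraries.

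In the other genes several transcripts shared the TPM. SPRY2 NM_005842.4 was at 37.9 TPM in DMSO against 43.3 TPM under CCA-1.1, and held 79.7% and 79.9% of the gene, so the higher SPRY2 value was mainly that of its main transcript. SPRY2 NM_001318536.1 was at 6.92 TPM and 5.83 TPM, NM_001318537.1 at 2.23 TPM and 3.84 TPM, and NM_001318538.1 at 0.52 TPM and 1.23 TPM. SPRY4 NM_001127496.3 was at 7.42 TPM and 7.10 TPM, and SPRY4 NM_001293290.3 at 0.67 TPM and 1.24 TPM. The SPRY4 model transcript XM_011537685.4, a computed prediction without curation, was at 0.74 TPM in DMSO and listed at 0 in CCA-1.1. Without model transcripts SPRY4 was at 8.36 TPM and 9.02 TPM, a difference of 0.10 in place of -0.01, so the sign of SPRY4 also depends on them.

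SPRED1 rested on NM_152594.3, at 14.6 TPM in DMSO against 15.6 TPM under CCA-1.1. SPRED2 NM_181784.3 was at 11.0 TPM and 10.4 TPM, and its share of the gene was 81.3% and 71.4%. The SPRED2 model XM_017003576.2 was at 0.86 TPM and 1.86 TPM, and all SPRED2 models together were at 1.66 TPM and 3.62 TPM. The higher SPRED2 sum was therefore in the models and not in the curated transcripts. ETV4 NM_001261438.3 was at 4.06 TPM and 2.84 TPM, a difference of -0.40 and a share of 62.1% and 47.1%, the largest fall in share among the main transcripts. ETV4 NM_001079675.5 was at 1.72 TPM and 1.41 TPM. In SPRY1, which has 6 listed transcripts with 3 of them at 0 in both libraries, the highest transcript held 39.2% in DMSO and 61.8% in CCA-1.1 of a gene below 1 TPM. ETV4 also overlaps DHX8 on the genome, which was at 24.2 TPM and 20.5 TPM, and whether the 2 genes exchanged reads was not tested.

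**Figure D3:**
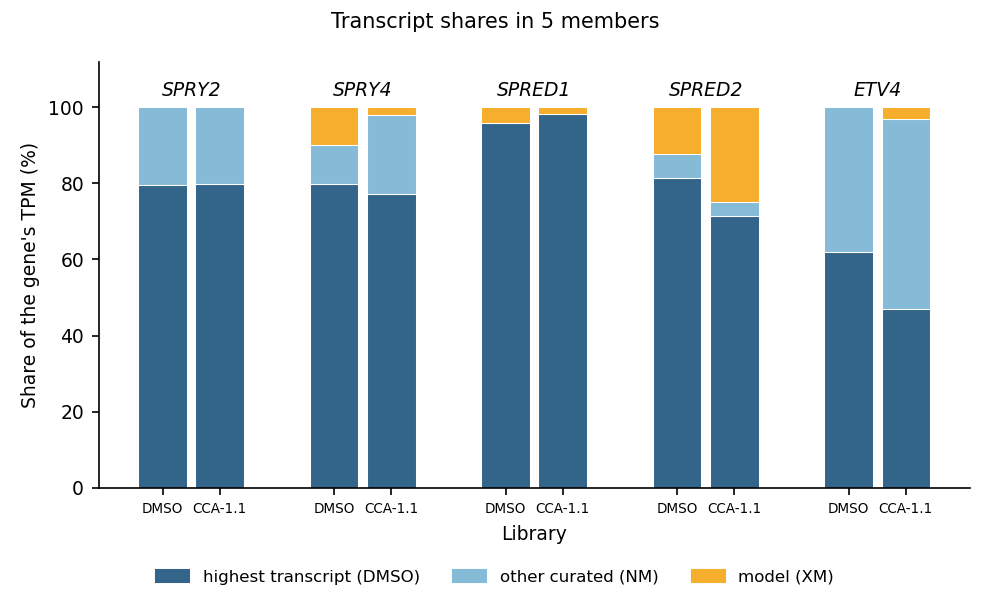
Share of each gene's TPM (%) held by the transcript that was highest in DMSO, by other curated transcripts and by model transcripts, in the DMSO and CCA-1.1 libraries, for the 5 members with several transcripts and over 1 TPM in which the main transcript held less than 98.9%. The main transcript of ETV4 goes from 62.1% to 47.1% and that of SPRED2 from 81.3% to 71.4%, while SPRY2 stays near 80%.

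The nearest relatives of the 10 genes show whether the same families moved elsewhere. Of 10 relatives, 8 had a mean of at least 1 TPM, of which 5 were higher and 3 lower, with a median of 0.06, and DUSP2 and DUSP9 were listed at 0 in both libraries. Over the 12041 genes, 53.8% were higher by any amount and the median was 0.02. DUSP16, which acts mainly on the stress kinase JNK, was at 12.4 TPM in DMSO against 15.7 TPM under CCA-1.1, a difference of 0.32. DUSP8, also a phosphatase of stress kinases, was at 4.38 TPM and 5.56 TPM, a difference of 0.29. These were the 2 relatives past 1.2-fold, of 8 compared, beside 10.7% of the 12041 genes higher and 7.04% lower by as much, but DUSP8 rests on model transcripts alone and its curated transcripts were listed at 0 in both libraries.

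DUSP1, an immediate-early phosphatase of all MAP kinase classes and the most abundant relative, was at 120.5 TPM in DMSO against 108.4 TPM under CCA-1.1, a difference of -0.15. DUSP7, the cytoplasmic ERK phosphatase closest in role to DUSP6, was at 15.4 TPM in both libraries, and DUSP10, which acts on JNK and p38, was at 7.91 TPM and 8.24 TPM. DUSP7 was therefore as level as DUSP6. SPRY3 was at 1.76 TPM and 1.90 TPM, and SPRED3 at 5.10 TPM and 5.72 TPM, both slightly higher in CCA-1.1. SPRY1, SPRY2 and SPRED1 were also higher, while the signs of SPRY4 and SPRED2 depended on which transcripts were counted.

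Other genes that ERK induces were also compared. Of 12 such output genes, 11 had a mean of at least 1 TPM, of which 4 were higher and 7 lower, with a median of -0.10, where 53.8% of the 12041 genes were higher and their median was 0.02. Past 1.2-fold were MYC, a growth-promoting transcription factor, at 21.1 TPM in DMSO against 31.6 TPM under CCA-1.1, a difference of 0.57, and ERRFI1, an inhibitor of the EGF receptor, at 150.7 TPM and 110.6 TPM, a difference of -0.44. These were in opposite directions, 1 of 11 genes each, beside 10.7% of all genes higher and 7.04% lower by over 1.2-fold, and the difference of ERRFI1 was above that of only 2.01% of the 12041 genes. IER3, an early response gene and the most abundant of the list, was at 1895 TPM and 1965 TPM, a difference of 0.05. PHLDA1 and CCND1, often used beside the DUSP and SPRY genes as readouts of ERK and named here after their values were seen, were at 134.9 and 120.2 TPM and at 70.7 and 61.9 TPM. Their differences were -0.17 and -0.19. Other readouts had higher values under CCA-1.1, among them SPHK1 (sphingosine kinase) at 61.4 and 69.6 TPM and EGR1, an immediate-early transcription factor, at 5.87 and 6.30 TPM, with differences of 0.18 and 0.09.

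The cascade itself was compared as 19 genes from adaptors to ERK, of which 16 had a mean of at least 1 TPM. Of these, 4 were higher and 12 lower in the CCA-1.1 library, with a median of -0.07, and 0 were past 1.2-fold. Among the 12041 genes, 53.8% were higher by any amount, 10.7% higher and 7.04% lower by over 1.2-fold. SHC1, an adaptor at activated receptors, was the most abundant at 448.7 TPM in DMSO against 417.0 TPM under CCA-1.1, a difference of -0.11. GRB2, the adaptor that brings the RAS activator SOS to receptors, was the lowest of the list by difference, with 154.6 TPM and 132.7 TPM and a difference of -0.22. Of the kinases, MAP2K1 (MEK1) was at 126.4 TPM and 112.5 TPM, and MAPK3 (ERK1) at 235.9 TPM and 205.5 TPM. MAP2K1 and MAPK3, named after their values were seen, had differences of -0.17 and -0.20. Not all kinases of the list were lower to this extent. BRAF was at 17.6 TPM and 18.2 TPM, a difference of 0.05, and level over curated transcripts alone. ARAF and MAP2K2 had differences of -0.01 and -0.06.

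Genes that restrain RAS or the cascade, or that act with SPRED, formed a list of 9, of which 8 had a mean of at least 1 TPM. Of these, 7 were higher and 1 lower in the CCA-1.1 library, with a median of 0.07, and 0 were past 1.2-fold, beside the same 53.8%, 10.7% and 7.04% of all genes. PEBP1, which encodes the RAF kinase inhibitor protein, was the most abundant at 295.1 TPM in DMSO against 311.4 TPM under CCA-1.1, a difference of 0.08. LZTR1, part of a ubiquitin ligase that acts on RAS proteins, was at 3.16 TPM and 3.80 TPM, a difference of 0.21. CBL, a ubiquitin ligase for activated receptors, was at 23.0 TPM and 22.8 TPM, a difference of -0.008. With 1 TPM added, the genes of both lists thus differed by less than 1.2-fold. Those with at least 1 TPM on average all lay within the 5th to 95th percentiles of the 12041 genes. Without the added 1 TPM, LZTR1 was just past 1.2-fold. KSR1 and KSR2 of the cascade list, below 1 TPM in both libraries, were then past it by more. KSR1 was higher, at 0.45 TPM and 0.71 TPM, and KSR2 lower, at 0.03 TPM and 0.01 TPM.

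**Figure D4:**
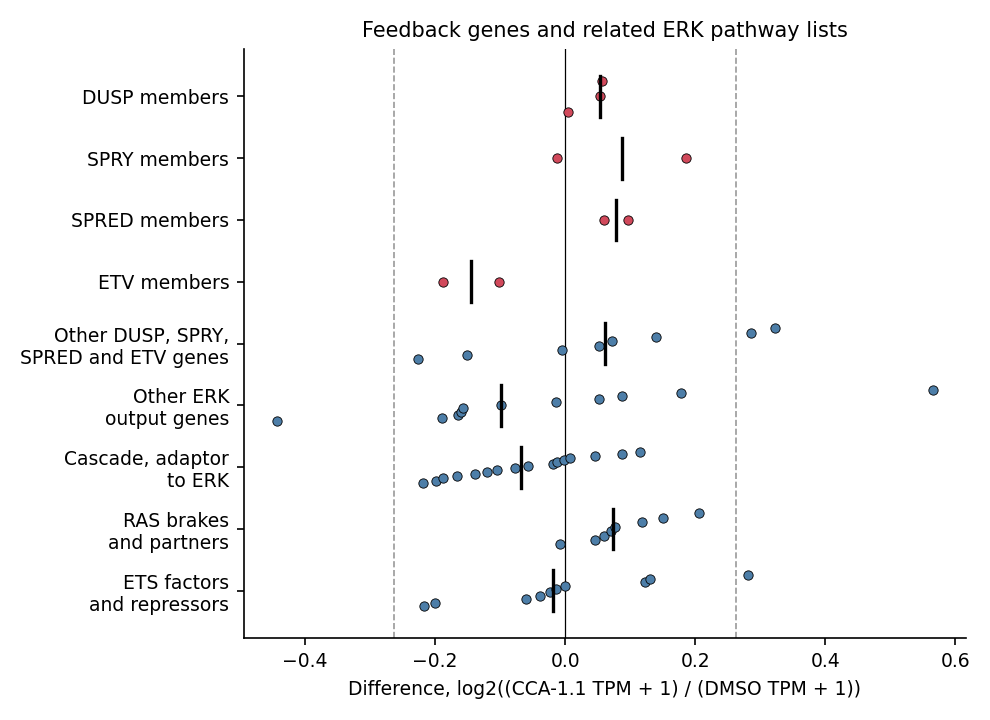
Difference between the libraries (log2 scale with 1 TPM added) for the ERK feedback genes by family (red) and for related lists (blue), with 1 point per gene of at least 1 TPM on average, black bars at the medians and dashed lines at 1.2-fold. The points past the dashed lines are MYC, ERRFI1, DUSP16, DUSP8 and ERF, and the ETV members lie to the left of 0.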

How the data were processed

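Transcript levels of 2 libraries of U87 cells, treated with DMSO or CCA-1.1 for 72 h, were examined. The authors enriched mRNA, ran read quality checks in FastQC (0.11.9) and MultiQC (1.1) and used Kallisto with the GRCh38.p14 transcripts for quantification. The deposited values are TPM, rounded to 2 decimals, and each column sums to 1e+06 within rounding, so read depth is unknown. Transcripts were matched to genes through RefSeq (169966 of 177816, ignoring versions; all 46 of the 10 genes matched with version) and summed per gene. Differences used a pseudocount of 1 TPM. The background was protein-coding genes that averaged 1 TPM or more. With 1 library per condition, no test was run.

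The members and lists were chosen with earlier results of these data known. Named from each list were the most abundant gene and those with the largest rise and fall. The largest rise of the cascade list is not reported here. A planned comparison of proteins was not run, since no protein sequences were used here. The calculation was tested on simulated data with changes larger than 2-fold, so differences near 1.2-fold were not covered by that test. Python 3.11.15, numpy 2.4.6, pandas 2.3.3 and matplotlib 3.10.9 were used. Alternatives were a pseudocount of 0.1 TPM or none, median-ratio scaling, curated transcripts only and other minimum levels.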

Additional observations from a re-analysis of the deposited data

How the results depend on the processing

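No paired analysis was possible because each condition had a single library, and none could be left out. Of 233 recomputed values, 214 kept within 0.1 (log2), 1.5 times (counts and percentages) or 5 percentage points (shares), and 0 values past 1.2-fold changed sign. Median-ratio scaling, a shift of -0.004 (log2), moved none of the values by more than these limits. Without a pseudocount, 1 of the 10 genes (SPRY1) and 1 of the brakes list (LZTR1) were past 1.2-fold, and SPRY1 was at 0.24 with 0.1 TPM.

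With curated transcripts only, SPRY4 (0.10) and SPRED2 (-0.11) changed sign, 1 relative in place of 2 was higher by over 1.2-fold, and 1 gene of the ETS list (ETS2) in place of 0 was lower. The share of the main transcript was then 88.8% for SPRY4 in DMSO, and 92.7% in DMSO and 95.1% in CCA-1.1 for SPRED2. These follow from leaving out model transcripts. The background share higher by over 1.2-fold ran from 7.44% to 13.7% over the alternatives and that lower from 5.32% to 9.77%. The shares past 2-fold moved more, from 0.0632% to 0.448% higher and from 0.140% to 0.363% lower, and account for 7 of the 19 values that moved. Values near 0, as for SPRY1, are limited by the absence of read counts.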

Other observations

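The factors through which ERK reaches its target genes were compared as a list of 10 ETS factors and repressors, all with a mean of at least 1 TPM. Of these, 3 were higher and 6 lower in the CCA-1.1 library, ATXN1L was at 12.7 TPM in both, and the median difference was -0.02. Over the 12041 genes, 53.8% were higher by any amount and the median was 0.02. ERF, an ETS repressor that ERK removes from the nucleus, was at 59.9 TPM in DMSO against 73.0 TPM under CCA-1.1, a difference of 0.28 and the only 1 of the list past 1.2-fold, where 10.7% of the 12041 protein-coding genes were. ETS1, the most abundant, was at 78.8 TPM and 85.9 TPM, and ETS2 at 19.8 TPM and 16.9 TPM, a difference of -0.22. CIC, which encodes capicua, a repressor of ETV and DUSP genes that ERK inactivates, was at 38.5 TPM and 38.1 TPM, a difference of -0.01.

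ERF and the PEA3 factors, which bind like sites with opposite effects, differed in opposite directions, with ERF higher and ETV1, ETV4 and ETV5 lower in the CCA-1.1 library. The other ETS factors of the list differed in both directions, so ERF was not alone in being higher. ETV3 and ELK3 were lower in the CCA-1.1 library, with differences of -0.04 and -0.20. ELK4 and ETS1 were higher, with differences of 0.13 and 0.12. ERF and the PEA3 genes were set side by side after their values had been seen. With 1 library per condition, the difference between them was not tested.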
